A study of Mus musculus with 16 samples.

Results

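The 10 genes described here carry sugar into the cell and turn it into the building blocks of fat. They comprise the fructose transporter Slc2a5, the glucose transporter Slc2a4, the fructose kinase Khk, the sugar-responsive transcription factor Mlxipl, its classical target Pklr, the pentose phosphate enzymes Tkt and Pgd, the mitochondrial carriers Slc25a10 and Slc25a1, and the glycerol phosphate enzyme Gpd1. Each was taken from the deposited table of 70603 loci, in which 55267 distinct gene names occur, as the locus naming the gene with the highest mean FPKM (fragments per kilobase of transcript and per unit of depth) over all 16 libraries. The set was selected on measured values, since its genes were proposed with the FPKM and fold changes between diets at 6 weeks known, so that contrast is given as a description of the 10 genes and supports nothing by itself.

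The RNA came from aortas of ApoE-/- mice, which lack apolipoprotein E, carry high plasma cholesterol and develop arterial plaques. Feeding began at an age of 8 weeks with either of 2 diets, Western or normal purified. The groups were AS6W, fed Western diet for 6 weeks, and Sham6W, fed normal diet for 6 weeks, both aged 14 weeks at the end, and AS22W, fed Western diet for 22 weeks, and Sham22W, fed normal diet for 22 weeks, both aged 30 weeks. Each group had 4 libraries. Every group carried the ApoE defect, which the genotype label gives as a knockdown of APOE and the design text as ApoE-/-, and there was no wild-type group. The labels do not say whether a library is 1 animal or a pool, so the tests measure the spread between libraries. The composition of the diets, including their sugar, is not given in the sources used here.

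In background terms, glucose enters fat and muscle cells through GLUT4, the insulin-responsive transporter encoded by Slc2a4, and fructose enters through GLUT5, encoded by Slc2a5. Sugar phosphates from either route activate ChREBP, the product of Mlxipl, which switches on genes of glycolysis and fat synthesis. Carbon reaches the cytosol as citrate through the carrier encoded by Slc25a1, the pentose phosphate pathway and malic enzyme provide the reducing power, and Gpd1 makes the glycerol phosphate onto which fatty acids are loaded. In rodents these steps are known best from liver and adipose tissue, and the fat around the aorta is a known store of adipocytes.

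The total estimated count of a library was 45253433 to 81397840. Markers of the labelled tissue were abundant, with the summed FPKM of 8 smooth muscle genes between 872 and 3630. All libraries also held RNA of fat, with Adipoq, which encodes the adipocyte hormone adiponectin, between 88.0 and 246 FPKM, and Ucp1, the uncoupling protein of brown fat, between 97.9 and 1090 FPKM. In such bulk tissue, fewer cells of a type and less RNA per cell cannot be told apart. The 6-week and 22-week libraries carry different library code prefixes, so the duration of feeding, age and library code cannot be told apart in any contrast over time. Loci with an FPKM of at least 1 in at least 4 libraries were tested with edgeR's quasi-likelihood test on the deposited counts, 24091 in all, and a locus was called at a Benjamini-Hochberg adjusted p under 0.05. Of the 10 genes, 9 passed this filter. Pklr did not, with 1 FPKM or more in 1 library.

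On Western diet for 6 weeks, the fructose transporter, both mitochondrial carriers and both pentose phosphate enzymes stood well below their level on normal diet, while 9 of the 10 genes had their lowest group mean in AS6W. Of the 9 tested genes, 5 were called lower in AS6W than in Sham6W and 0 higher, against 0.220% of all tested loci called lower and 0.0623% called higher (0.282% in either direction). The log2 differences of the 9 ran from -3.52 to -0.47 with a median of -1.34, while the median over all tested loci was 0. For 7 of the 9, all AS6W libraries lay below all Sham6W libraries, against 4.20% of all loci, and for 0 they lay above, against 3.19%. Because the genes were proposed with this contrast known, nothing is read from these counts.

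The fructose transporter Slc2a5, at chr4:150119283-150144169 on the plus strand of GRCm38, showed the widest separation. Its level was 0.544, 0.568, 0.315 and 0.643 FPKM in the AS6W libraries, against 8.09, 6.13, 5.03 and 3.94 FPKM in the Sham6W libraries. The highest AS6W library was thus far below the lowest Sham6W library, and the means were 0.517 ± 0.141 FPKM in AS6W and 5.80 ± 1.77 FPKM in Sham6W (SD, n = 4 each). The log2 fold change was -3.52 ± 0.46 (SE), with an adjusted p of 0.00318. The deposited counts behind these levels were 97 to 202 in AS6W and 1299 to 2456 in Sham6W. Among 9 measured genes of a list of sugar transporters, Slc2a5 was the only one called.

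Slc25a10, at chr11:120491840-120499187 on the plus strand, encodes the mitochondrial dicarboxylate carrier, which exchanges malate and succinate for phosphate across the inner membrane. It had 1.85, 2.50, 2.88 and 2.89 FPKM in AS6W, against 10.7, 10.4, 10.3 and 7.61 FPKM in Sham6W. The groups did not overlap, and the log2 fold change of -1.99 ± 0.19 (SE) had the smallest adjusted p among the 10 genes at 0.000235. A second locus named Slc25a10, downstream at chr11:120500991-120502860, was called as well. It averaged 0.430 ± 0.110 FPKM in AS6W and 1.36 ± 0.171 FPKM in Sham6W (SD, n = 4 each), a log2 fold change of -1.70 ± 0.25 (SE, adjusted p 0.00745).

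Slc25a1, at chr16:17925223-17928219 on the minus strand, encodes the citrate carrier that feeds cytosolic acetyl-CoA production. Its AS6W libraries held 44.0, 60.6, 28.4 and 51.3 FPKM, against 193, 183, 117 and 135 FPKM in Sham6W. All AS6W values lay below all Sham6W values, with a log2 fold change of -1.82 ± 0.30 (SE, adjusted p 0.0154).

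Tkt, at chr14:30548054-30574720 on the plus strand in a locus that also names the microRNA gene Mir3076, encodes transketolase, which interconverts pentose and hexose phosphates. It was measured at 48.2, 60.4, 50.4 and 71.6 FPKM in AS6W and at 197, 163, 143 and 163 FPKM in Sham6W. The log2 fold change was -1.58 ± 0.23 (SE, adjusted p 0.00810), again with no overlap. Inside the gene, at chr14:30552176-30557577, the table lists a locus on the minus strand that also bears the name Tkt. This locus averaged 4.45 ± 1.21 FPKM in AS6W and 16 ± 5.07 FPKM in Sham6W (SD, n = 4 each), a log2 fold change of -1.89 ± 0.33 (SE, adjusted p 0.0192). Whether the libraries keep strand is not given in the sources used here, so reads of this locus and of Tkt itself cannot be told apart. Another locus named Tkt, at chr14:30575511-30576638, was lower by a log2 fold change of -1.75 ± 0.46 (SE) and was not called (adjusted p 0.15).

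Pgd, at chr4:149149991-149166771 on the minus strand, encodes 6-phosphogluconate dehydrogenase, which yields NADPH in the oxidative arm of the pentose phosphate pathway. Levels were 14.8, 19.0, 15.9 and 20.5 FPKM in AS6W, against 50.8, 46.1, 36.6 and 37.7 FPKM in Sham6W. The groups were apart, with a log2 fold change of -1.34 ± 0.23 (SE, adjusted p 0.0192). A short locus inside Pgd on the other strand was listed at 0 in most libraries.

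The other 4 tested genes were not called at 6 weeks. Gpd1, at chr15:99717515-99725005 on the plus strand, was the most abundant of the 10, with 309, 542, 429 and 596 FPKM in AS6W and 990, 979, 813 and 941 FPKM in Sham6W. These libraries did not overlap either, and the log2 difference was -1.04 ± 0.28 (SE, adjusted p 0.166). Mlxipl, at chr5:135089890-135141123 on the plus strand, had 3.68, 8.25, 8.20 and 8.16 FPKM in AS6W, against 15.8, 13.5, 10.0 and 11 FPKM in Sham6W. Its AS6W replicate 1 stood alone below the other 3, and the log2 difference of -0.88 ± 0.29 (SE) had an adjusted p of 0.268. Slc2a4, at chr11:69942539-69948188 on the minus strand, held 20 to 36.0 FPKM in AS6W and 35.0 to 45.6 FPKM in Sham6W, with overlap (log2 difference -0.47 ± 0.22 SE, adjusted p 0.463). Khk, which phosphorylates fructose once it is inside the cell, lies at chr5:30921431-30931248 on the plus strand and held 2.21 to 3.41 FPKM in AS6W and 2.83 to 4.80 FPKM in Sham6W (log2 difference -0.47 ± 0.21 SE, adjusted p 0.426). The transporter and the kinase that act in turn on fructose thus stood in different proportion, with Slc2a5 FPKM over Khk FPKM at 0.186 ± 0.0694 in AS6W and 1.66 ± 0.909 in Sham6W (SD, n = 4 each).

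**Figure D1:**
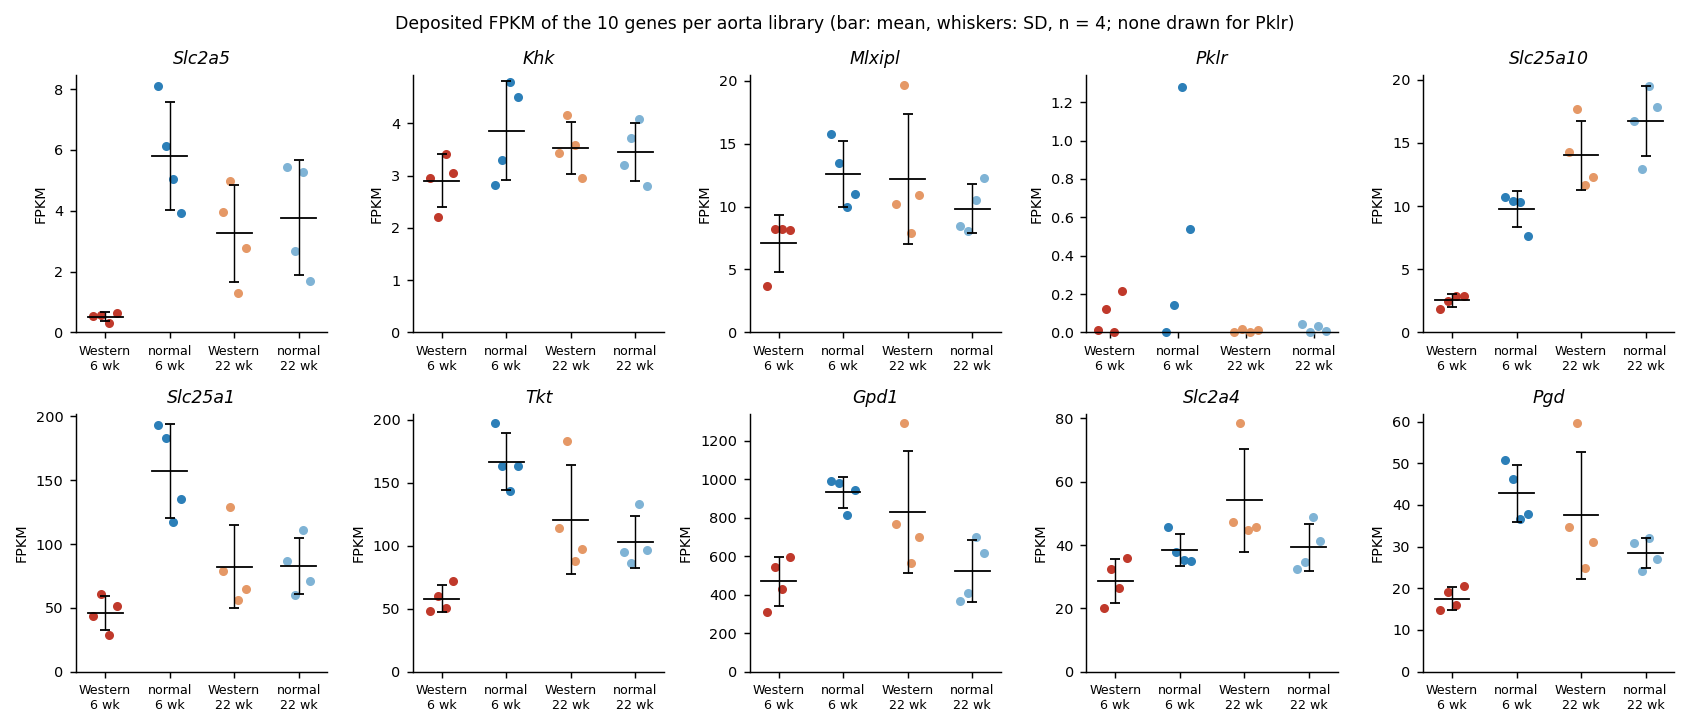
Deposited FPKM (vertical axes, linear from 0) of each of the 10 genes in each library, by diet and weeks of feeding. Points are libraries, bars the mean and whiskers the SD of 4 libraries, with no bar for Pklr. The AS6W points of Slc2a5 lie between 0.315 and 0.643 FPKM, all below the points of the other 3 groups.

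The 5 called genes are read from different chromosomes or, for Slc2a5 and Pgd, from separate places on chromosome 4. The 250 bases before each start are shown because these genes moved together between the diets at 6 weeks, with the sequences from RefSeq on GRCm38.p6, read 5′ to 3′ on the strand of the gene. RefSeq promoters matched 8 of the 10 genes. A RefSeq start can differ from the start of the measured locus. The Tkt window lies inside its locus, so it does not cover the bases before the locus start. The windows of Slc2a5 and Pgd run past the starts of their loci. A second RefSeq window of Pgd, chr4:149166083-149166332, holds none of the motifs searched and is not shown. Gpd1 and Slc2a4 are named only. Capitals mark the E-box CACGTG, which upstream stimulatory factors and, in pairs, ChREBP are known to bind, the carbohydrate response element that holds such a pair, and the CCAAT box (CCAAT, or ATTGG on the other strand).
Slc2a5, chr4:150119094-150119343, plus strand: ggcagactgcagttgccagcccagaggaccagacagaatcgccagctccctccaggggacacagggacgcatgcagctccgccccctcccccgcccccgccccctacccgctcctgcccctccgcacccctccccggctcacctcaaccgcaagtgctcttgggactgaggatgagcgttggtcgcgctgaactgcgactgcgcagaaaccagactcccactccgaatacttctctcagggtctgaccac
Slc25a10, chr11:120491587-120491836, plus strand: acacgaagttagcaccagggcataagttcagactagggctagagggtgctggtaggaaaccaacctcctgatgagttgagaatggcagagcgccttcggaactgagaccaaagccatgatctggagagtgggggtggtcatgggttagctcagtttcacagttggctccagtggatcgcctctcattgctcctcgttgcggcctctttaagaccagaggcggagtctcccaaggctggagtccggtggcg
Slc25a1, chr16:17928220-17928469, minus strand: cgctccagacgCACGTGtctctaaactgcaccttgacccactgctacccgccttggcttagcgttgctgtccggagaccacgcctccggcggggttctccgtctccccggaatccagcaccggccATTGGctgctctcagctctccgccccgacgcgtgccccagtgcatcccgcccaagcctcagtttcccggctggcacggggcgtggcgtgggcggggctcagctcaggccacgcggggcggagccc
Tkt, chr14:30548881-30549130, plus strand: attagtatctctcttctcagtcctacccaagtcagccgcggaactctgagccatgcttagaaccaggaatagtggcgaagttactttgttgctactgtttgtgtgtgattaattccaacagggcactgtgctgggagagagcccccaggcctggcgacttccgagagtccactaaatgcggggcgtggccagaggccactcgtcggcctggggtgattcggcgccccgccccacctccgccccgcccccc
Pgd, chr4:149166706-149166955, minus strand: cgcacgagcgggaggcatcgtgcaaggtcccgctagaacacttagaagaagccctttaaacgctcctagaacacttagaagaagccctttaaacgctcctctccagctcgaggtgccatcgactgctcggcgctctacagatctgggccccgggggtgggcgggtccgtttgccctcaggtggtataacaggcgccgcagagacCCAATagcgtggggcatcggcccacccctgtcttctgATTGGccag
Both strands were searched, and the E-box reads the same on each. Among these 5 windows the E-box occurred once, in Slc25a1 at position -239 from the start, while 6.02% of 32851 RefSeq promoter windows of this length hold it. CCAAT boxes were found in Slc25a1 at position -125 and in Pgd at positions -46 and -9, and 33.8% of all windows hold one. The windows of Slc2a5, Slc25a10 and Tkt hold none of the capitalised motifs. The GC box GGGCGG, which is not capitalised, was found in all of these windows except that of Slc25a10, and 32.7% of all windows hold it. None of the 5 windows matched the carbohydrate response element.

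Genes that share a step with the called members were examined in lists, which were chosen with earlier results of these data known. In the list of citrate, malate and acetyl-CoA supply, 4 of 21 measured genes were called lower at 6 weeks and 0 higher, against 0.220% and 0.0623% of all loci, and the median log2 difference was -0.45. Of these, Slc25a1 and Slc25a10 are carriers already described and proposed with this contrast known, and the others were Acly, the ATP citrate lyase that splits exported citrate, and Me1, the cytosolic malic enzyme that makes NADPH. Acly had 97.7 to 165 FPKM in AS6W and 427 to 587 FPKM in Sham6W (log2 fold change -2.04 ± 0.32 SE, adjusted p 0.0119). Me1 had 49.3 to 91.9 FPKM in AS6W and 189 to 299 FPKM in Sham6W (log2 fold change -1.80 ± 0.33 SE, adjusted p 0.0307). In the pentose phosphate list, 2 of 10 genes were called lower and 0 higher, and the median log2 difference of the list was -0.45. The called genes were the already described Tkt and Pgd. G6pdx, the entry enzyme of that pathway, had 21.1 to 33.8 FPKM in AS6W and 39.5 to 60.2 FPKM in Sham6W, without overlap, and was not called (log2 difference -0.91 ± 0.21 SE, adjusted p 0.116).

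Of 10 measured genes in the list of ChREBP, its partners and its known targets, 1 was called lower and 0 higher. Over all loci, 0.220% were called lower and 0.0623% higher. The called gene was Thrsp, a gene of lipogenic tissues long used as a marker of carbohydrate feeding in rat liver. Thrsp had 125 to 200 FPKM in AS6W and 395 to 528 FPKM in Sham6W (log2 fold change -1.50 ± 0.25 SE, adjusted p 0.0178). In the fatty acid synthesis list, 3 of 11 genes were called lower and 0 higher, against the same shares of all loci. The 3 were Acly, Me1 and Thrsp, all of which also stand in a list above. No gene was called among 5 fructose and polyol enzymes, 19 glycolytic genes, 8 genes of glycerol phosphate supply or 16 genes of insulin signalling to GLUT4. The median log2 difference of the insulin signalling list was -0.03, and that of the glycolysis list -0.27. A facilitative glucose transporter found in most cells, Slc2a1, had 5.45 to 6.64 FPKM in AS6W and 5.02 to 5.78 FPKM in Sham6W (log2 difference 0.09 ± 0.13 SE, adjusted p 0.897).

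**Figure D2:**
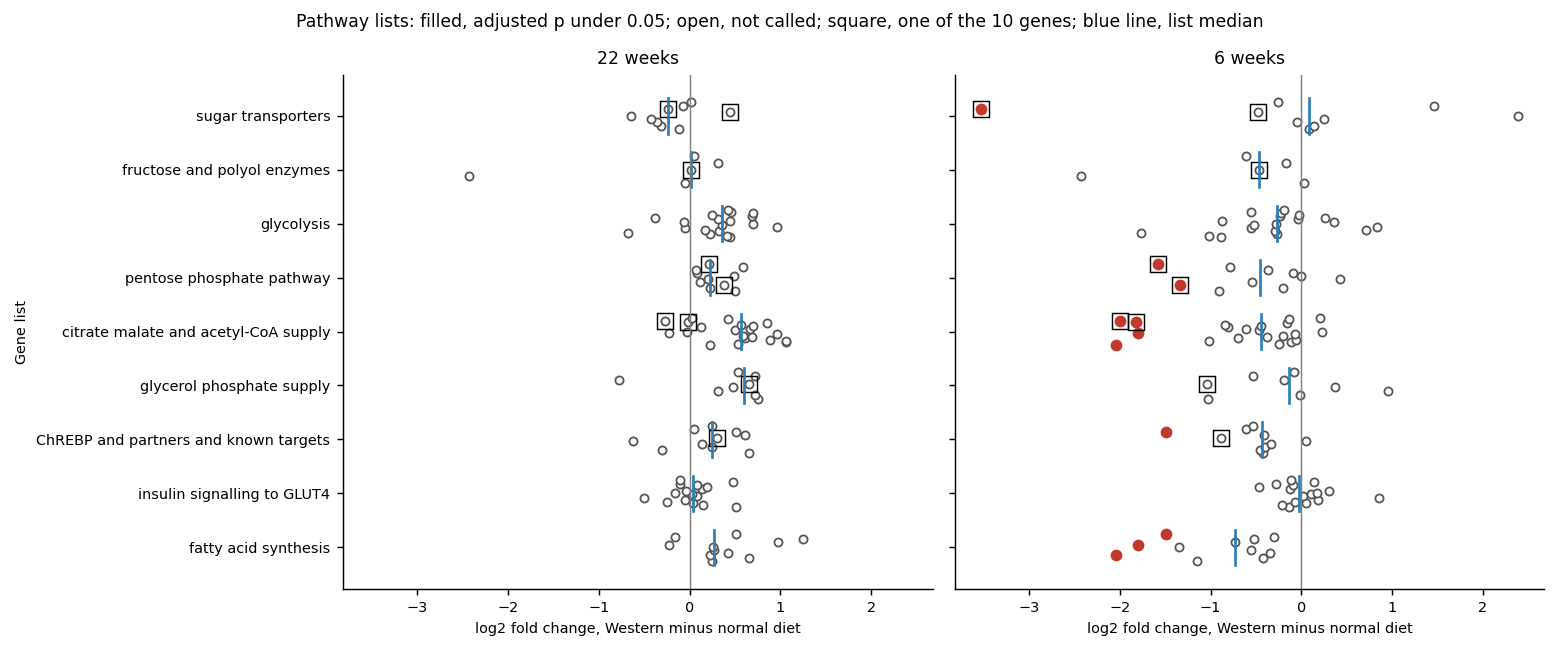
Log2 difference between Western and normal diet (horizontal axes) for each measured gene of 9 pathway lists, at 22 weeks on the left and at 6 weeks on the right. Filled points were called at an adjusted p under 0.05, open points were not, squares mark members of the 10 genes and blue lines the list medians. The called points all lie at 6 weeks and below 0.

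Markers of fat and muscle cells, both of which express some of these genes, are given beside the counts. Over the 12 adipocyte markers, the summed FPKM was 1100 to 1710 in AS6W and 1100 to 1290 in Sham6W. None was called, 8 of 12 were lower in AS6W, and the median log2 difference was -0.20. The list split, with AS6W wholly lower for 4 markers and wholly higher for 2, against 4.20% and 3.19% of all loci. Adipoq was at 0.02 and Lep, the leptin gene, at -2.90 (adjusted p 0.14). Cfd had 281 to 524 FPKM in AS6W and 180 to 231 FPKM in Sham6W. Pparg had 6.26 to 12.5 FPKM in AS6W and 4.42 to 5.57 FPKM in Sham6W. Plin1, Cidec and Lipe went the other way. Plin1 had 34.5 to 44.1 FPKM in AS6W and 44.2 to 56.4 FPKM in Sham6W. Cidec had 58.6 to 86.1 FPKM in AS6W and 95.1 to 110 FPKM in Sham6W. Lipe had 21.6 to 28.4 FPKM in AS6W and 31.7 to 42.5 FPKM in Sham6W. Over the 10 brown adipocyte markers the summed FPKM was 1260 to 2320 in AS6W and 1570 to 2180 in Sham6W, with a median log2 difference of 0.04. Skeletal muscle markers were lower in AS6W in 11 of 11 measured loci, with 0 called and a median log2 difference of -1.54, and summed to 3.59 to 25.9 FPKM in AS6W and 13.6 to 80.4 FPKM in Sham6W. Their part in the levels of the 10 genes was not tested. The mean log2 level of the adipocyte markers, unlike their sum, was mostly lower in AS6W, at 7.09 to 7.76, against 7.70 to 7.87 in Sham6W. When this mean level entered the fit as a covariate, the same 5 genes were called at 6 weeks. Their log2 fold changes were -3.29 for Slc2a5, -1.82 for Slc25a10, -1.51 for Slc25a1, -1.31 for Tkt and -1.11 for Pgd.

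Immune cell markers set 2 of the 6-week libraries apart. AS6W replicate 1 had a summed thymocyte marker FPKM of 101, against 4.64 to 20.8 in the other AS6W libraries and 2.09 to 8.32 in Sham6W, and Sham6W replicate 2 had a summed B cell marker FPKM of 59.3, against 2.26 to 10.5 in AS6W and 2.71 to 5.39 in the other Sham6W libraries. AS6W replicate 1 was also the lowest of all 16 libraries for Mlxipl, Slc25a10, Tkt, Gpd1, Slc2a4 and Pgd. The part of immune cells in its levels was not tested. A fit without AS6W replicate 1 and Sham6W replicate 2 was added once the data had been seen. In it 2 of the 9 genes were called, Slc2a5 at a log2 fold change of -3.52 and Slc25a10 at -1.85. The other 3 kept log2 differences of -1.72 for Slc25a1, -1.52 for Tkt and -1.23 for Pgd with adjusted p of 0.105, 0.0669 and 0.136, in a fit that called 23 loci in place of 68. With any 1 library left out in turn, 3 to 5 genes were called. Slc25a1 was lost without Sham6W replicate 1, and Pgd without any 1 of AS6W replicates 1, 2 and 3 or Sham6W replicates 1 and 2.

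After 22 weeks, no difference between the diets was detectable in the 9 tested genes. Of the 9 tested genes 0 were called in either direction with edgeR, and 0 with DESeq2. With edgeR, 1 of the 9 had an unadjusted p under 0.05, as did 3437 of all 24091 loci. Over all loci, 0.228% were called, 0.0540% lower and 0.174% higher in AS22W. The log2 differences of the 9 lay between -0.28 and 0.66 with a median of 0.22, 3 were below 0, and 0 had groups apart, against 2.99% of all loci with AS22W wholly lower and 4.52% with AS22W wholly higher. These libraries are not shared with the 6-week contrast.

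Slc2a5 had 3.96, 4.99, 1.29 and 2.79 FPKM in AS22W, against 5.44, 2.68, 5.29 and 1.69 FPKM in Sham22W. The groups overlapped over most of their range. The log2 difference of -0.24 ± 0.41 (SE, adjusted p 0.851) had an approximate 95% confidence interval of -1.05 to 0.56. Slc25a10 had 14.3, 17.7, 11.7 and 12.3 FPKM in AS22W and 16.7, 12.9, 19.5 and 17.8 FPKM in Sham22W. Here too the groups overlapped, with a log2 difference of -0.28 ± 0.18 (SE, adjusted p 0.529) and an interval of -0.63 to 0.08.

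The citrate carrier gene Slc25a1 averaged 82.3 ± 32.7 FPKM in AS22W and 82.4 ± 21.8 FPKM in Sham22W (SD, n = 4 each). Tkt averaged 121 ± 42.7 FPKM in AS22W and 103 ± 20.7 FPKM in Sham22W, and Pgd 37.6 ± 15.2 FPKM in AS22W and 28.5 ± 3.61 FPKM in Sham22W. None of these differences was called, with adjusted p of 0.991, 0.729 and 0.474 in that order. The Tkt log2 difference was 0.22 ± 0.23 (SE), while the other loci named Tkt were lower in AS22W and not called. Their log2 differences were -0.80 ± 0.32 (SE, adjusted p 0.262) at chr14:30552176-30557577 and -1.42 ± 0.45 (SE, adjusted p 0.157) at chr14:30575511-30576638.

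The glycerol phosphate enzyme Gpd1 was the gene with the unadjusted p under 0.05. It had 766, 1290, 562 and 701 FPKM in AS22W, against 368, 407, 698 and 614 FPKM in Sham22W. Values overlapped between 562 and 698 FPKM, and the log2 difference of 0.66 ± 0.28 (SE) had an adjusted p of 0.293. The insulin-responsive transporter gene Slc2a4 had 47.4, 78.5, 44.8 and 45.7 FPKM in AS22W and 32.3, 34.7, 48.7 and 41.3 FPKM in Sham22W, a log2 difference of 0.45 ± 0.22 (SE, adjusted p 0.372). Muscle also expresses Slc2a4, and the summed FPKM of 11 skeletal muscle marker loci was 12.8 to 113 in AS22W and 2.95 to 18.7 in Sham22W. Its part in the Slc2a4 levels was not tested.

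Mlxipl held 7.92 to 19.7 FPKM in AS22W and 8.07 to 12.3 FPKM in Sham22W, and Khk 2.95 to 4.16 FPKM in AS22W and 2.80 to 4.08 FPKM in Sham22W. AS22W replicate 2 was the highest of all 16 libraries for 4 of the 10 genes, Mlxipl, Gpd1, Slc2a4 and Pgd. It was also highest in summed adipocyte (1910 FPKM), erythroid (988 FPKM) and endothelial markers (125 FPKM), and lowest in smooth muscle markers (872 FPKM). The part of these cells in its levels was not tested. The adipocyte markers summed to 966 to 1910 FPKM in AS22W and 747 to 1520 FPKM in Sham22W. Brown adipocyte markers summed to 871 to 1840 FPKM in AS22W and 236 to 666 FPKM in Sham22W. Of the 10, 2 were called higher in AS22W and 0 lower, against 0.174% and 0.0540% of all loci. The 2 were the fatty acid binding protein gene Fabp3 and the respiratory chain subunit gene Cox8b. AS22W lay wholly higher for 6 of the 10 markers and wholly lower for 0, against 4.52% and 2.99% of all loci. The median log2 difference of these markers was 1.27. The part of brown fat in the diet differences at 22 weeks was not tested. No gene of the 9 pathway lists was called at 22 weeks.

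**Figure D3:**
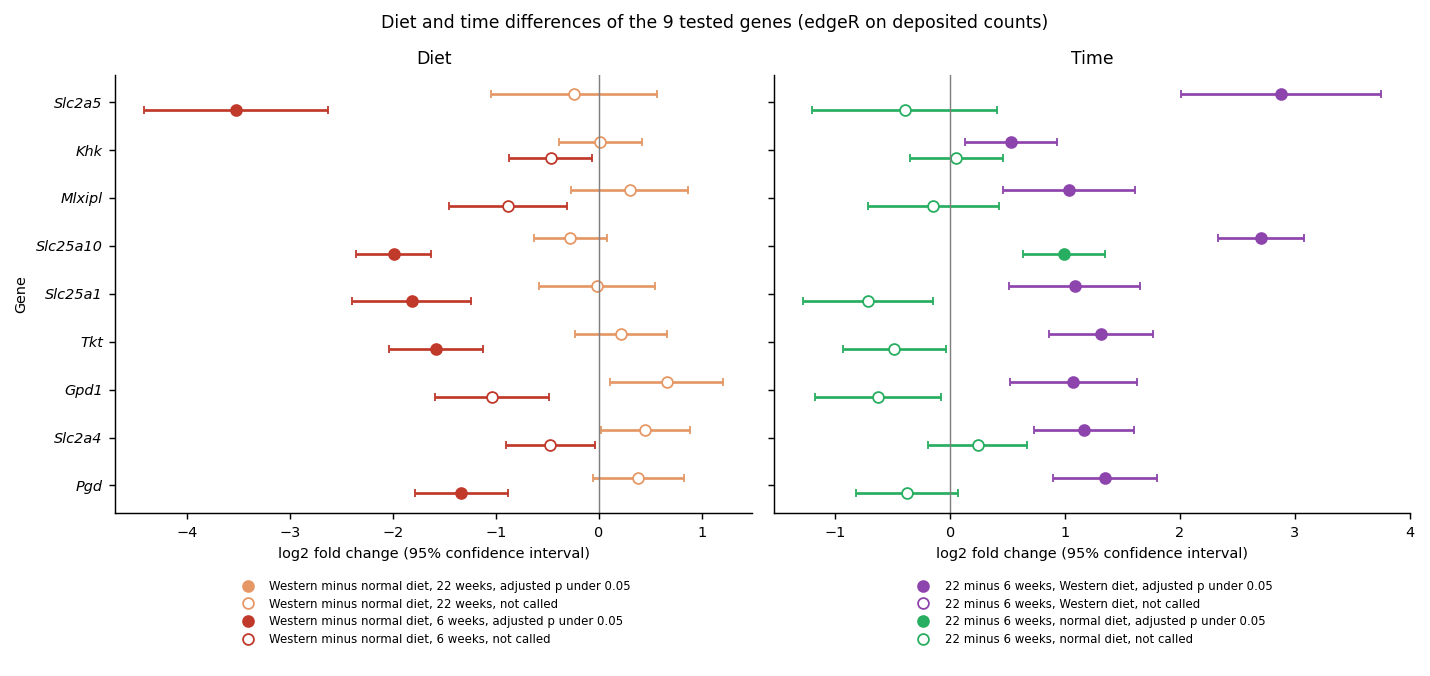
Log2 fold changes (horizontal axes, points) of the 9 tested genes, with approximate 95% confidence intervals (lines). The diet contrasts are on the left and the contrasts over time on the right. Filled points were called at an adjusted p under 0.05 over all loci. The 6-week diet differences all lie below 0, from -3.52 to -0.47, and the 22-week ones between -0.28 and 0.66.

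The difference of the diet effects, 22 weeks minus 6 weeks, was fitted directly, and is a description too, since its 6-week part is the contrast the genes were selected on. It was positive for all 9 tested genes, with a median of 1.72 on the log2 scale, and 4 were called higher and 0 lower, against 0.145% of all loci called higher and 0.0374% lower (0.183% in either direction). For Slc2a5 the diet difference was -0.24 at 22 weeks and -3.52 at 6 weeks, a difference of 3.28 ± 0.60 (SE, adjusted p 0.0409). For Slc25a10 it was -0.28 at 22 weeks and -1.99 at 6 weeks, a difference of 1.72 ± 0.26 (SE, adjusted p 0.0246). Tkt gave a difference of 1.80 ± 0.33 (SE, adjusted p 0.0381) and Pgd one of 1.72 ± 0.32 (SE, adjusted p 0.0478). The other loci named Tkt gave 1.09 ± 0.45 (SE, adjusted p 0.337) and 0.32 ± 0.63 (SE, adjusted p 0.898). The downstream Slc25a10 locus gave 1.53 ± 0.34 (SE, adjusted p 0.0966), and none of these other loci was called. Slc25a1, at 1.80 ± 0.41 (SE, adjusted p 0.0987), and Gpd1, at 1.70 ± 0.40 (SE, adjusted p 0.102), were not called.

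The 4 calls rest closely on single libraries. With 1 library left out in turn, 0 to 4 genes were called. None was called without AS6W replicate 2, Sham6W replicate 1, Sham6W replicate 2 or Sham22W replicate 2, 1 was called without any of AS6W replicate 1 or 3, Sham6W replicate 3 or 4, AS22W replicate 1 or Sham22W replicate 1, and 2 without Sham22W replicate 4. With the adipocyte markers as a covariate 0 were called, and Slc2a5 then had a difference of 2.73 (adjusted p 0.384). Over these settings the differences stayed positive for all 9 genes. Outside the 10 genes, the pathway lists held 2 more called genes, the acetyl-CoA synthetase gene Acss2 at 2.08 ± 0.34 (SE, adjusted p 0.0381) and Thrsp at 2.01 ± 0.35 (SE, adjusted p 0.0381).

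On Western diet, all 9 tested genes were called higher at 22 weeks than at 6 weeks, against 21.9% of all loci called higher and as large a share called lower (43.8% in either direction). The log2 differences ran from 0.53 for Khk to 2.88 for Slc2a5, with a median of 1.16, while the median over all loci was -0.02. This contrast also rests on AS6W, the group in which 9 of the genes were lowest. Slc2a5 averaged 3.26 ± 1.59 FPKM in AS22W and 0.517 ± 0.141 FPKM in AS6W (log2 fold change 2.88 ± 0.44 SE, adjusted p 0.000101), and Slc25a10 14.0 ± 2.69 FPKM in AS22W and 2.53 ± 0.491 FPKM in AS6W (log2 fold change 2.71 ± 0.19 SE, adjusted p 1.39e-07; SD, n = 4 each). On the scale of depth-scaled counts (CPM) after TMM scaling, all 9 had groups apart with AS22W higher, against 20.1% of all loci higher and 20.4% lower, and in deposited FPKM 5 did, Slc2a5, Slc25a10, Tkt, Slc2a4 and Pgd. The adipocyte covariate left 5 called, and Khk (adjusted p 0.048) was lost in 6 of the 8 fits without 1 library. Over the same contrast 6 of 12 adipocyte markers were called higher and 1 lower, 5 of 8 macrophage markers higher and 1 lower, and the summed macrophage FPKM was 692 to 966 in AS22W and 187 to 531 in AS6W. Skeletal muscle markers were called higher in 5 of 11, with sums of 12.8 to 113 FPKM in AS22W and 3.59 to 25.9 FPKM in AS6W. Erythroid markers were called higher in 5 of 5, and hepatocyte markers lower in 5 of 7, with sums of 8.29 to 38.9 FPKM in AS22W and 18.3 to 176 FPKM in AS6W. Smooth muscle markers were called lower in 3 of 8 and higher in 0, with sums of 872 to 1620 FPKM in AS22W and 2450 to 2720 FPKM in AS6W. The part of macrophages, skeletal and smooth muscle, blood and liver RNA in these differences was not tested.

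On normal diet, only Slc25a10 was called, higher at 22 weeks, against 24.0% of all loci called higher and 22.6% called lower (46.7% in either direction). It had 16.7, 12.9, 19.5 and 17.8 FPKM in Sham22W and 10.7, 10.4, 10.3 and 7.61 FPKM in Sham6W, a log2 fold change of 0.99 ± 0.18 (SE, adjusted p 0.000429). The downstream locus named Slc25a10 was not called here, at a log2 difference of -0.37 ± 0.24 (SE, adjusted p 0.222). The other 8 tested genes had log2 differences between -0.72 and 0.24. This contrast also rests on Sham6W, part of the diet contrast at 6 weeks on which the genes were selected. Its differences are therefore a description too. Slc25a1 had 60.4 to 111 FPKM in Sham22W and 117 to 193 FPKM in Sham6W, and Gpd1 368 to 698 FPKM in Sham22W and 813 to 990 FPKM in Sham6W. Neither was called with edgeR, at log2 differences of -0.72 ± 0.29 (SE, adjusted p 0.0532) for Slc25a1 and -0.63 ± 0.28 (SE, adjusted p 0.0786) for Gpd1. The scale mattered here, since in FPKM the 22-week libraries of 4 genes, Slc25a1, Tkt, Gpd1 and Pgd, lay wholly below the 6-week ones, and after TMM scaling only those of Gpd1 did, where 21.9% of all loci were wholly lower and 22.1% wholly higher. Limma on log2(FPKM + 0.5) called 5 genes and DESeq2 3. Skeletal muscle markers were called lower in 6 of 11, with sums of 2.95 to 18.7 FPKM in Sham22W and 13.6 to 80.4 FPKM in Sham6W. Brown adipocyte markers fell over the same contrast, 7 of 10 called lower and 1 higher. Their summed FPKM was 236 to 666 in Sham22W and 1570 to 2180 in Sham6W. Smooth muscle markers were called lower in 2 of 8 and higher in 0, with sums of 1220 to 2250 FPKM in Sham22W and 2710 to 3630 FPKM in Sham6W. Macrophage markers were called higher in 4 of 8 and lower in 1, and erythroid markers higher in 3 of 5. Hepatocyte markers were called lower in 5 of 7 and higher in 1. The part of all these cells in the levels of the genes was not tested.

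Ranked by group mean, the order was Sham6W highest and AS6W lowest for 7 of the 10 genes, Slc2a5, Khk, Mlxipl, Slc25a1, Tkt, Gpd1 and Pgd. The exceptions were Slc25a10, highest in Sham22W, Slc2a4, highest in AS22W, and Pklr, lowest in AS22W. The middle ranks are not firm, because AS22W and Sham22W overlapped in all 9 tested genes. Across libraries, Slc2a5 had the widest range of the tested genes, 25.7-fold between AS6W replicate 3 and Sham6W replicate 1, and Khk the narrowest, 2.17-fold.

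Ratios between genes of a library are free of its depth. Tkt over Pgd stayed within 3.06 to 4.33 in all 16 libraries, at 3.28 ± 0.152 in AS6W, 3.91 ± 0.327 in Sham6W, 3.26 ± 0.207 in AS22W and 3.59 ± 0.439 in Sham22W (SD, n = 4 each). At 6 weeks the diets lay narrowly apart in this ratio, at 3.16 to 3.50 in AS6W and 3.53 to 4.33 in Sham6W. At 22 weeks they overlapped, at 3.06 to 3.53 in AS22W and 3.08 to 4.15 in Sham22W. The carriers behaved differently. Slc25a10 over Slc25a1 was 0.0412 to 0.101 in AS6W and 0.0554 to 0.0881 in Sham6W, overlapping between diets, and 0.137 to 0.208 in AS22W and 0.176 to 0.250 in Sham22W, above every 6-week library. In Slc2a5 over Slc2a4 the diets also lay apart at 6 weeks, at 0.0119 to 0.0272 in AS6W and 0.112 to 0.177 in Sham6W. They overlapped at 22 weeks, at 0.0288 to 0.0835 in AS22W and 0.0410 to 0.168 in Sham22W.

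**Figure D4:**
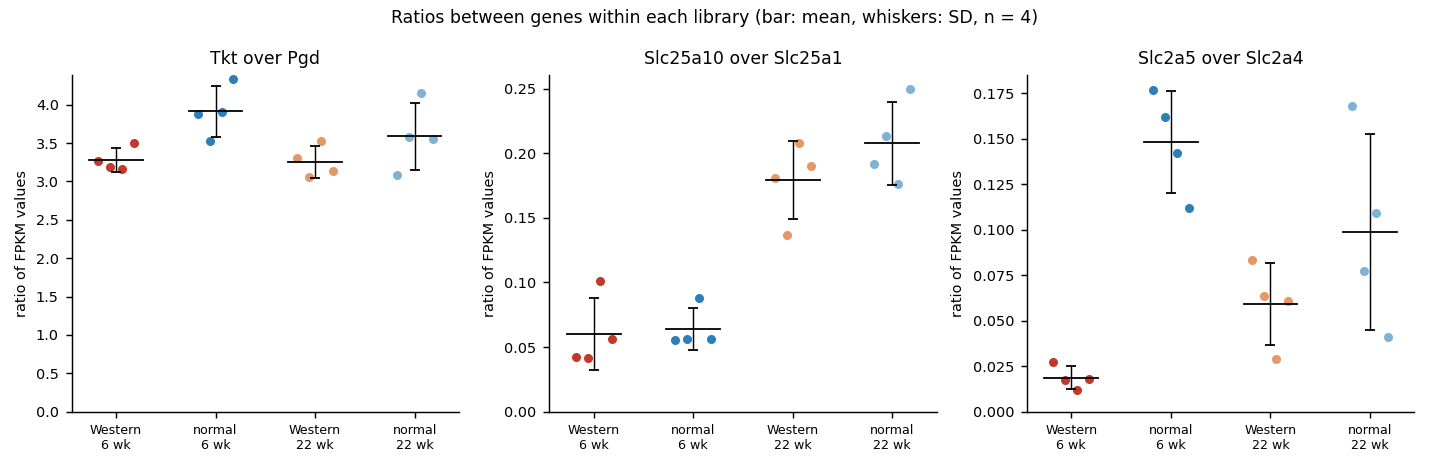
Ratio of FPKM values between 2 genes of the same library (vertical axes, from 0), by diet and weeks of feeding. Points are libraries, bars the mean and whiskers the SD of 4. Tkt over Pgd lies between 3.06 and 4.33 throughout, and Slc25a10 over Slc25a1 lies between 0.137 and 0.250 in the 22-week libraries, above all 6-week libraries.

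The genes whose log2 levels ran closest to Slc2a5 over the 16 libraries, by root mean square difference of centred log2 CPM, were Mtarc1 at 0.455, AA914427 at 0.477, Acly at 0.694, Gm8162 at 0.734 and Tlr5 at 0.776. For Slc25a10 they were Sbk1 at 0.374, A530016L24Rik at 0.412, Hoxc8 at 0.453, Fasn, which encodes fatty acid synthase, at 0.456, and Ptges at 0.498. The profiles of Tkt and Slc2a4 were looked up after their values were seen. The nearest to Tkt was Pgd at 0.149, then Thrsp at 0.220, and the nearest to Slc2a4 was Slc25a39 at 0.135. These are descriptions over libraries that share groups, and only tested loci naming 1 gene were searched.

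Mlxipl and Pklr, the transcription factor and its textbook target in liver, close the set. The Mlxipl locus spans both known starts of the gene, and its single level cannot separate the longer from the shorter ChREBP. The windows before the upstream Mlxipl start and before the inner Pklr start are shown because they hold the motifs named for ChREBP and its binding site, with capitals as above.
Mlxipl upstream start, chr5:135089640-135089889, plus strand: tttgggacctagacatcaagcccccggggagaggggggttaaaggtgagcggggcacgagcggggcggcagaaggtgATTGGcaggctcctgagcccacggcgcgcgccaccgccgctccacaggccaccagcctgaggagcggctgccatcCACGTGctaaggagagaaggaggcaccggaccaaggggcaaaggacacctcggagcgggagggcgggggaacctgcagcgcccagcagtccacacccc
Pklr inner start, chr3:89136373-89136622, plus strand: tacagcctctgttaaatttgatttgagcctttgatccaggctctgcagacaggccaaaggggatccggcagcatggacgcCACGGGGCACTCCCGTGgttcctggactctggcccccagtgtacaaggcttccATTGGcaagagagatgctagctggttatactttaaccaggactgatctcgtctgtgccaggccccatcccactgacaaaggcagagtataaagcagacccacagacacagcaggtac
The Pklr window carries the carbohydrate response element at position -170, a match found in 0.0974% of all windows, and a CCAAT box at position -117. The Mlxipl window holds an E-box at position -98 and a CCAAT box at position -173, and the Khk window, not shown, an E-box at position -71. A second RefSeq window of Mlxipl, chr5:135106641-135106890, and one of Pklr, chr3:89135892-89136141, hold none of the motifs searched and are not shown. That Pklr window lies directly before the start of the measured locus. A match is a run of letters and not a measured binding site.

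Pklr, the pyruvate kinase of liver and red cells, at chr3:89136142-89146594 on the plus strand, was scarcely detected. Its level was 0.0146 FPKM, 0.122 FPKM, listed at 0 and 0.218 FPKM in AS6W, against listed at 0, 0.141 FPKM, 1.28 FPKM and 0.540 FPKM in Sham6W. At 22 weeks it stayed at or below 0.0167 FPKM in AS22W and 0.0430 FPKM in Sham22W. Libraries with and without Pklr reads occurred on both diets at 6 weeks, and its highest library, Sham6W replicate 3, was also the one with the highest summed FPKM of 7 hepatocyte markers, 253, with the albumin gene Alb at 169 FPKM. The hepatocyte sums were 62.2, 78.9, 18.3 and 176 in AS6W, 11.5, 28.8, 253 and 48.3 in Sham6W, 8.29 to 38.9 in AS22W and 10.6 to 50.4 in Sham22W. Most of the 22-week sums came from 1 marker, Cyp2e1. It averaged 18.6 of 20.9 FPKM in AS22W and 18.3 of 21.9 FPKM in Sham22W. At 6 weeks Cyp2e1 averaged 23.0 FPKM in AS6W and 7.31 FPKM in Sham6W. The part of hepatocyte RNA in the Pklr level was not tested. With no filter on low values, the log2 difference of Pklr was -2.50 between diets at 6 weeks (adjusted p 0.642), -1.52 between diets at 22 weeks (adjusted p 0.772), -3.24 over time on Western diet (adjusted p 0.168) and -4.22 over time on normal diet (adjusted p 0.048).

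**Figure D5:**
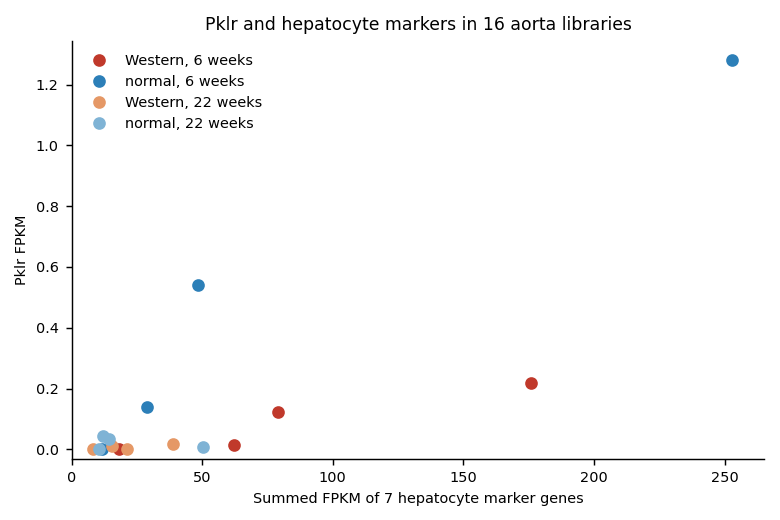
Pklr level (vertical axis, FPKM) against the summed FPKM of 7 hepatocyte marker genes (horizontal axis) in the 16 libraries, coloured by group. The library with 1.28 FPKM of Pklr has the highest marker sum, 253, and all 22-week libraries lie at or below 0.0430 FPKM. In the 22-week libraries most of the marker sum is Cyp2e1.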

How the data were processed

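Aortic RNA of 16 libraries, 4 in each of 4 groups, was sequenced, at a total of 45253433 to 81397840 counts a library. The deposited table gives FPKM and an estimated count per locus and library, per the file headers. The submitters' processing notes name cutadapt 1.9, FastQC and GRCm38, and no source used here names the aligner or counter. Deposited counts are whole, with low values in steps of about 4 (35277 values equal 4, 14716 equal 3 and 9394 equal 5). FPKM is 1e-04 at a count of 0, written as listed at 0. A label of AS6W replicate 4 names another column, so columns were matched by title. Unnamed loci (3714, with 0.606% of counts) were left out.

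The 24091 loci with at least 1 FPKM in at least 4 libraries were fitted on the counts with edgeR 4.0.16 (TMM, quasi-likelihood, two-sided, 4 group means) and adjusted by Benjamini-Hochberg, after a check on simulated data. The SE is the log2 fold change over the root of F. Limma 3.58.1 and DESeq2 1.42.0 were alternatives. Members and gene lists were chosen with earlier results of these data known. Named were the members, their other tested loci, up to 4 called genes of lowest p per pathway list and comparison, and the 5 nearest patterns of Slc2a5 and Slc25a10, and any other gene after its values were seen.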

Additional observations from a re-analysis of the deposited data

Results flagged for a closer look

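Single libraries stood apart from their group in 3 of 40 gene and group combinations, where chance gives about 1 in 20. Mlxipl was at 3.68 FPKM in AS6W replicate 1, the library richest in thymocyte markers, against 8.16 to 8.25 FPKM in the other 3 AS6W libraries. Slc25a10 was at 7.61 FPKM in Sham6W replicate 4, against 10.3 to 10.7 FPKM in the other 3. Slc2a4 was at 78.5 FPKM in AS22W replicate 2, against 44.8 to 47.4 FPKM in the other 3.

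The diet difference at 22 weeks minus that at 6 weeks was called in 4 genes, which were proposed with its 6-week part known, so it is a description of them. On the log2 scale it was 3.28 for Slc2a5, 1.72 for Slc25a10, 1.80 for Tkt and 1.72 for Pgd, with edgeR adjusted p of 0.0409, 0.0246, 0.0381 and 0.0478. With 1 library left out 0 to 4 of the 9 tested genes were called, and 0 with the adipocyte covariate or the replicate block.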

How the results depend on the processing

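Calls among the 9 tested genes were recomputed under each alternative. At 6 weeks 5 were called. The count was 2 without AS6W replicate 1 and Sham6W replicate 2, the pair rich in thymocyte and B cell markers, 6 with DESeq2, and 3 to 5 with 1 library left out. Slc2a5 and Slc25a10 were called in every setting tried. At 22 weeks 0 were called in every setting tried. For the difference of the diet effects 4 were called, against 1 with filterByExpr, 2 with limma on log2(FPKM + 0.5), log2(FPKM + 0.1) and log2(FPKM + 1), 0 with the adipocyte covariate, 0 without the thymocyte and B cell libraries, 1 without the hepatocyte libraries, 6 with DESeq2 and 0 to 4 with 1 library left out. Over time on Western diet 9 were called, 5 with the adipocyte covariate and 8 to 9 in all other settings, where the gene lost was Khk. Its call was lost in 10 of the 15 other alternatives and in 6 of the 8 fits with 1 library left out. Over time on normal diet 1 was called, 3 with DESeq2, 2 with no filter, 3 with filterByExpr (both counts include Pklr, which is tested only there), 5 with each limma fit, 4 with only the 8 compared libraries, 2 with summed loci, 2 with the adipocyte covariate, 2 without the hepatocyte libraries and 1 to 4 with 1 library left out. The cause of these shifts was not tested.

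Replicate numbers did not pair the samples, the correlations of same-numbered libraries running from -0.268 to 0.213. With the replicate block, 4 genes were called at 6 weeks (Pgd was lost, adjusted p 0.0612), 0 at 22 weeks, 0 for the difference of the diet effects, 9 over time on Western diet and 1 on normal diet, and 28 loci in all at 6 weeks. Over all loci, edgeR called 68 and DESeq2 459 at 6 weeks, edgeR 55 and DESeq2 828 at 22 weeks, and edgeR 44 and DESeq2 497 for the difference.

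Signs turned only for differences that were not called. Khk over time on normal diet was 0.05, and -0.011 with filterByExpr, -0.12, -0.14 and -0.11 with limma at pseudocounts of 0.5, 0.1 and 1, -0.026 without the thymocyte and B cell libraries and -0.071 to 0.19 with 1 library left out. Khk between diets at 22 weeks was 0.01, and -0.016 with summed loci, -0.10 with the covariate, -0.11 without the 2 libraries highest in cardiac muscle markers and -0.087 to 0.14 with 1 left out. With the covariate, Mlxipl was -0.014 and Tkt -0.15 between diets at 22 weeks, and Mlxipl 0.036 over time on normal diet. Slc25a1 between diets at 22 weeks was 0.04 without the cardiac libraries. With 1 library left out, the 22-week diet difference was -0.33 to 0.19 for Slc25a1, -0.54 to 0.014 for Slc2a5, -0.034 to 0.46 for Mlxipl and -0.056 to 0.40 for Tkt. The settings that leave out 2 libraries were added after the data were seen. Pklr is limited by depth, at 0 to 301 counts a library.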

Other observations

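Other sugar handling genes were called over time on both diets, in contrasts where 43.8% of all loci were called on Western diet (21.9% higher and 21.9% lower) and 46.7% on normal diet (24.0% higher and 22.6% lower). Slc2a8, which encodes an intracellular hexose transporter, had 6.82 to 7.90 FPKM in AS22W and 2.17 to 2.51 FPKM in AS6W (log2 fold change 1.88, edgeR adjusted p 5.5e-08), and 6.53 to 7.67 FPKM in Sham22W and 2.53 to 3.05 FPKM in Sham6W (1.60, adjusted p 6.3e-08). Slc2a1 had 6.27 to 9.84 FPKM in AS22W and 5.45 to 6.64 FPKM in AS6W (0.72, adjusted p 0.000499), and 7.83 to 10.4 FPKM in Sham22W and 5.02 to 5.78 FPKM in Sham6W (0.93, adjusted p 5.17e-05). Of 9 measured sugar transporters, 5 were called higher and 1 lower over time on Western diet, and 4 higher and 0 lower on normal diet. Of 11 measured fatty acid synthesis genes, 6 were called higher and 0 lower on Western diet, and 1 higher and 6 lower on normal diet. Irs2, which encodes an insulin receptor substrate, had 14.0 to 20.5 FPKM in AS22W and 15.1 to 18.6 FPKM in AS6W (log2 difference 0.27, adjusted p 0.297), and 18.3 to 33.2 FPKM in Sham22W and 7.16 to 11 FPKM in Sham6W (log2 fold change 1.63, adjusted p 1.52e-05). The difference between the diets over time for Irs2 was not called (-1.36, adjusted p 0.0793).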
